A study of Mus musculus with 2 samples.

Results

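The Pax genes encode transcription factors that share a DNA-binding paired domain, and all 9 members named Pax1 to Pax9 were taken from the gene table by symbol. They are 9 of the 43346 genes measured and carry 74 of the 103639 transcripts. RNA came from the midbrain of mouse embryos at embryonic day 12.5 of strain B6NCrl and mixed sex, for which the labels name no allele or treatment. The 2 libraries form 1 group: replicate 1 was a pool of 120 embryos and replicate 2 a separate pool of 88 embryos. Each was made from 10 ng of size-selected long RNA with spike-in RNAs. The design holds no contrast between conditions and the values describe levels and the difference between the pools.

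As background, Pax proteins fall into subgroups by the domains they keep beside the paired domain. Pax1 and Pax9 have no homeodomain and are known for the sclerotome and pharyngeal pouches. Pax2, Pax5 and Pax8 keep part of a homeodomain and an octapeptide, and act at the midbrain-hindbrain boundary, in the kidney, ear and thyroid, and in B cells. Pax3 and Pax7 have a full homeodomain and mark dorsal neural tube, neural crest and muscle precursors. In the dorsal midbrain they are known as markers of the future tectum. Pax4 and Pax6 have a homeodomain and no octapeptide. Pax6 is a regulator of eye, forebrain and pancreas, and its midbrain border meets the diencephalon, while Pax4 acts in the endocrine pancreas.

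Close sequence between paralogues bears on whether reads can be told apart, so the stretch around the longest coding run shared by Pax3 and Pax7 is shown. Both are given 5′ to 3′ on the coding strand from GENCODE M21 transcripts on GRCm38, with the 26 shared bases in capitals. They lie where the paired domain begins.
Pax3-202: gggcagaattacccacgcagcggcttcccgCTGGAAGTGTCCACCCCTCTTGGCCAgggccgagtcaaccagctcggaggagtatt
Pax7-201: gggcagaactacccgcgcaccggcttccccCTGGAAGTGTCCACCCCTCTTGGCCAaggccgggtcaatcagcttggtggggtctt
Over these 86 bases, 75 are identical. The longest coding runs shared by Pax2 with Pax8 and by Pax1 with Pax9 were of similar length, at 27 and 26 bases. Pax5 shared a run of 17 bases with each of Pax2 and Pax8, and Pax4 shared 15 with Pax6. Over whole transcripts of all 36 pairs of members, the longest run was 37 bases, between Pax3 and Pax6. No stretch of 100 bases in any of the 9 genes was shared with another Pax gene, so an error-free read of that length cannot match more than 1 member.

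A further pair of sequences shows the splice choice that sets the form of the Pax6 paired domain. The 42-base alternative exon, in capitals, is flanked by 24 bases on each side (chr2:105684751-105684792, GRCm38, plus strand). Its inclusion lengthens the paired domain and, as background, changes which DNA sites the protein prefers.
Pax6-225: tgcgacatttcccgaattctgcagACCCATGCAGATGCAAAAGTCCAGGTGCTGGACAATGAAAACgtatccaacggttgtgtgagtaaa
Pax6-207: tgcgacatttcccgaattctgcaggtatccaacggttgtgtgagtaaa
The second transcript joins the same flanks directly.

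Pax6 transcription is known to begin at several promoters, and the 2 windows of 300 bases that RefSeq lists for it (GRCm38.p6, plus strand, 250 bases before to 50 after a start) are shown because Pax6 start groups are compared between the pools. CG pairs are in capitals.
chr2:105668646-105668945: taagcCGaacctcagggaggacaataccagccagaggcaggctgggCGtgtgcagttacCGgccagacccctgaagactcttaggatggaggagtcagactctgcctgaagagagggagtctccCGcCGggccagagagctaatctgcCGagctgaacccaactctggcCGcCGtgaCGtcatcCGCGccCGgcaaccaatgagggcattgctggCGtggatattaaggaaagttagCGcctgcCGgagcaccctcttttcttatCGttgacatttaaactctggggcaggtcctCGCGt
chr2:105682213-105682512: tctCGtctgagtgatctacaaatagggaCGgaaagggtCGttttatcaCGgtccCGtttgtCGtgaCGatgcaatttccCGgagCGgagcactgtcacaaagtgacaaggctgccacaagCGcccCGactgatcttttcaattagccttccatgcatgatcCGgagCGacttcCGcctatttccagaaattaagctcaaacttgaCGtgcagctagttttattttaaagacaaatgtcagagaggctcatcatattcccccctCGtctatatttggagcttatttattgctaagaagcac
The upstream window held 18 CG pairs, more than 70.3% of the 32851 windows of this length, and the downstream window 16, more than 67.0%. The motif TATAAA, searched on both strands, was in neither window. It was absent from all 10 windows listed for 7 Pax genes, while 13.6% of all windows held it.

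Depth and the labelled tissue were examined before the members. The libraries held 28212923 and 36082643 estimated counts on genes. Otx2, the midbrain and forebrain regulator, was at 146.55 and 141.78 TPM (length-scaled transcript abundance), while 7 hindbrain Hox-list genes summed to 0.64 and 0.55 TPM, each under 1 TPM and Hoxb4 at 0 counts. En1, a midbrain and hindbrain regulator, was at 5.90 and 8.49 TPM. The libraries are pools, so they show neither single embryos nor cell types, and fewer cells of a type cannot be told apart from less RNA per cell.

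Of the 9 members, 5 reached 1 TPM in both libraries (Pax3, Pax5, Pax6, Pax7 and Pax8) and 4 stayed under 1 TPM in both (Pax1, Pax2, Pax4 and Pax9). The family summed to 114.8 TPM in replicate 1 and 86.43 TPM in replicate 2 (100.6 ± 20.1, mean ± SD, n = 2). Pax3 and Pax6 together held most of it in each pool, in opposite order. Pax6 was 52.3% of the family in replicate 1 and 20.4% in replicate 2. Pax3 was 37.6% in replicate 1 and 59.1% in replicate 2. The leading member of the family therefore differed between the pools.

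**Figure D1:**
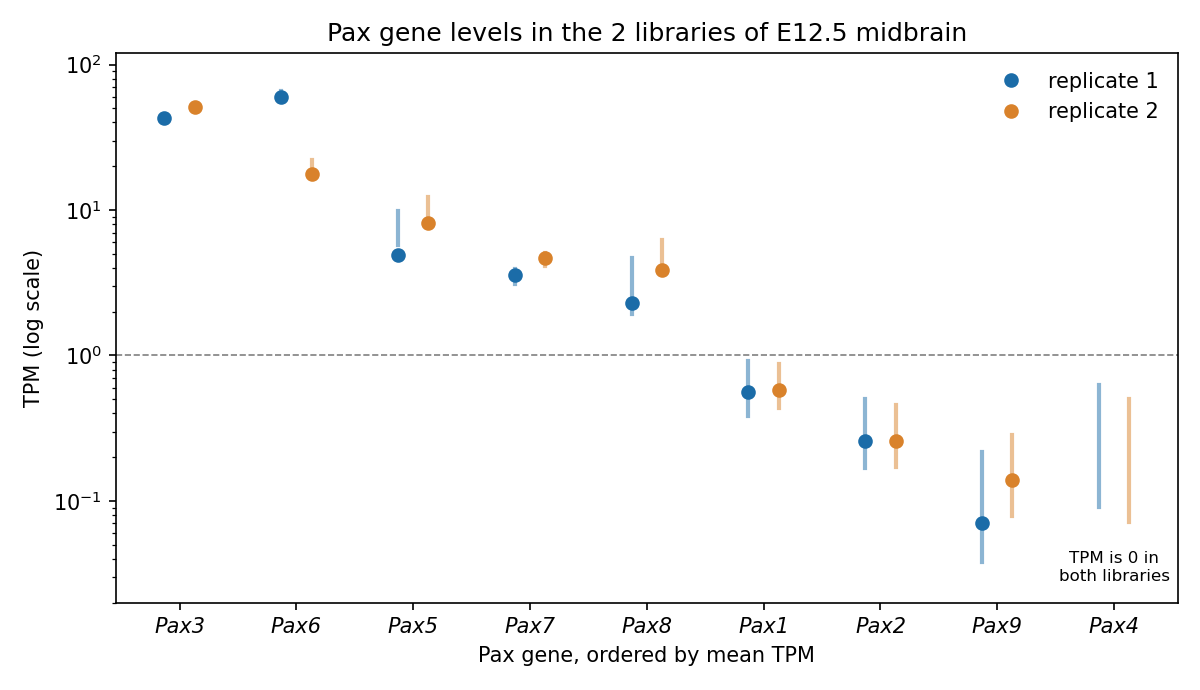
TPM of each Pax gene (log axis) in replicate 1 (blue) and replicate 2 (orange). Points are deposited TPM, vertical lines are the deposited TPM intervals, and the dashed line marks 1 TPM. Pax3, Pax5, Pax6, Pax7 and Pax8 lie above 1 TPM, Pax6 is the member whose points are farthest apart, and Pax4 is at 0 TPM with an interval only.

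Ordered by mean deposited TPM, the members ran Pax3, Pax6, Pax5, Pax7, Pax8, Pax1, Pax2, Pax9 and Pax4. In 6 of the 8 neighbouring pairs, both libraries of one lay above both of the other. The exceptions were Pax3 with Pax6 and Pax7 with Pax8, whose libraries overlapped. The place of Pax5 above Pax7 rests on 4.88 against 4.68 TPM and on the transcript Pax5-208, which overlaps another gene. Without that transcript Pax5 was at 2.7 and 4.57 TPM, under Pax7 at 3.55 and 4.68 TPM in each library.

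Pax3 (chr1:78101267-78197134, minus strand) was the most evenly measured of the higher members. Its level was 43.17 TPM in replicate 1 and 51.08 in replicate 2 (47.12 ± 5.59, n = 2), with 2791 and 4166 counts. Replicate 2 was higher and the deposited intervals, 40.3 to 43.5 and 48.3 to 51.3 TPM, did not overlap. The level of these intervals is not given in the sources used here. Among 21461 nuclear protein-coding genes Pax3 ranked 3935 in replicate 1 and 3500 in replicate 2.

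Its subgroup partner Pax7 (chr4:139737062-139833528, minus strand) was at 3.55 and 4.68 TPM (4.115 ± 0.799, n = 2), with 350 and 541 counts. The order of the pools was the same as for Pax3, and the deposited intervals of 3.1 to 3.91 and 4.13 to 5.08 TPM were also apart. Pax3 and Pax7 together made up 40.7% and 64.5% of the family TPM.

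Pax6 (chr2:105668900-105697364, plus strand) had 60.02 TPM in replicate 1 and 17.67 in replicate 2 (38.84 ± 29.9, n = 2), from 2311 and 886 counts. Replicate 1 was high and replicate 2 low, and the intervals of 57.2 to 65.4 and 17.6 to 22.2 TPM were far apart. It ranked 2873 in replicate 1 and 7320 in replicate 2. The other gene of its subgroup, Pax4 (chr6:28442334-28449353, minus strand), had 0 counts in each library. With 3 counts as the limit that a count of 0 allows, its level could be up to 0.107 and 0.0827 CPM (counts scaled to library size), counting error only. The deposited intervals of Pax4, 0.091 to 0.629 and 0.0713 to 0.498 TPM, lie above its deposited TPM of 0. Its posterior mean TPM was 0.34 and 0.27, above that of Pax9 at 0.12 and 0.17, so its last place holds for deposited TPM only.

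Pax5 (chr4:44524757-44710487, minus strand) was the highest of the boundary subgroup, at 4.88 and 8.14 TPM (6.51 ± 2.31, n = 2). Replicate 2 was higher, on 99.29 and 182.52 counts. The deposited TPM of replicate 1 lies under its own interval of 5.71 to 9.82 TPM, and the interval of replicate 2 was 8.1 to 12.2 TPM, so the intervals overlap. Part of this value rests on a transcript that overlaps another gene, described with the isoforms.

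Pax8 (chr2:24420560-24475599, minus strand) was at 2.29 and 3.88 TPM (3.085 ± 1.12, n = 2), with 73 and 178.75 counts. Replicate 2 was higher, and the intervals of 1.93 to 4.68 and 3.63 to 6.26 TPM overlapped. Pax2 (chr19:44756045-44837871, plus strand) was at 0.26 TPM in each library, on 15 and 18 counts. Pax2, known for its early role at the boundary, was thus the lowest of the 3 genes of the subgroup, which summed to 7.43 and 12.28 TPM.

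Pax1 (chr2:147361925-147393295, plus strand) was at 0.56 and 0.58 TPM (0.57 ± 0.0141, n = 2), on 21 and 33 counts. Pax9 (chr12:56691767-56712822, plus strand) was at 0.07 and 0.14 TPM (0.105 ± 0.0495, n = 2), on 4 and 10 counts. These members of the sclerotome subgroup rest on few counts, and their sum was 0.549% and 0.833% of the family TPM.

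The pools were then compared gene by gene with a two-sided exact binomial test of rounded counts, adjusted by Benjamini-Hochberg over 18939 genes. The test covers counting error only and compares these 2 libraries, not conditions. Called genes had to pass 3 limits: an adjusted p below 0.05, a 1.5-fold difference, and a mean level of 1 TPM or more. Of the 5 Pax genes at that level, 2 were called, Pax6 lower and Pax8 higher in replicate 2, beside 3.55% of the 15199 genes at that level. By direction the background was 1.41% lower and 2.14% higher. The median log2 ratio (replicate 2 over replicate 1) was 0.26 over the 8 tested members and 0.00 over all tested genes, and 6 of the 8 had a higher normalised count in replicate 2.

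**Figure D2:**
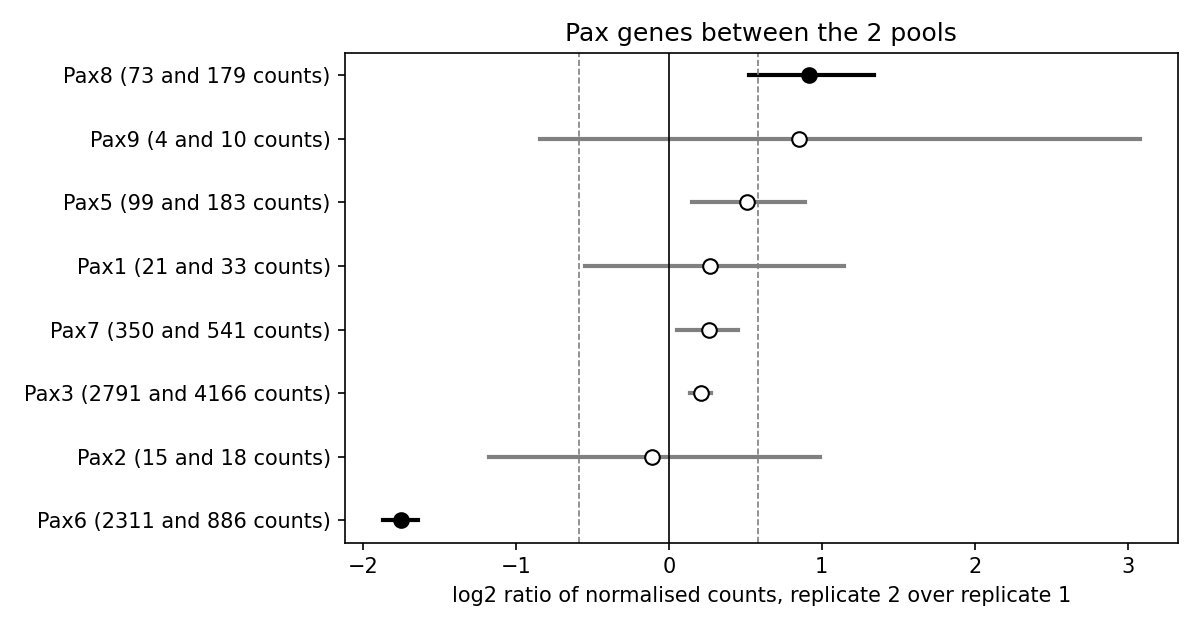
Log2 ratio of normalised counts, replicate 2 over replicate 1, for the 8 tested Pax genes, with rounded counts of replicates 1 and 2 beside each name. Lines are 95% exact intervals for counting error, filled points are called genes and dashed lines mark 1.5-fold in either direction. Pax6 lies far to the left at -1.75, Pax8 is the called gene on the right at 0.92, and the intervals of Pax1, Pax2 and Pax9 cross 0.

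Pax6 was 3.37-fold lower in replicate 2 (95% interval 3.12 to 3.64, counting error only), a log2 ratio of -1.75 with an adjusted p of 2.18e-232 in the exact binomial test. With a negative binomial test (edgeR, exact), which adds a coefficient of variation of 0.0939 shared by all genes, the adjusted p was 1.74e-14. That test called 1.32% of genes, and Pax6 was the 1 member among them. The difference was therefore larger than the spread this estimate gives for typical genes between the pools.

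Pax8 was 1.89-fold higher in replicate 2 (95% interval 1.44 to 2.53), a log2 ratio of 0.92 with an adjusted p of 3.23e-05 in the exact binomial test. Under the negative binomial test its adjusted p was 0.0568, so the call is lost there. The ratio of posterior mean TPM was smaller, at 0.61 on the log2 scale, with overlapping intervals. Pax8 is the thyroid and kidney member, and defining markers of those organs were at or near 0. Umod and Foxe1 were at 0 counts and Tg was at 0.21 and 0.20 TPM.

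Pax3, Pax5 and Pax7 had adjusted p-values under 0.05 without reaching 1.5-fold. Of the 8 tested members, the 5 at 1 TPM passed on p alone, beside 22.8% of all tested genes and 26.4% of genes at 1 TPM or more. Pax3 was 1.16-fold higher in replicate 2 (1.1 to 1.21, adjusted p 7.81e-08, exact binomial test). Pax7 was 1.2-fold higher (1.04 to 1.37, adjusted p 0.0424, exact binomial test), a p that was 0.0542 when genes with fewer counts were also tested. Neither was separable under the negative binomial test, where both had an adjusted p of 1.0.

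Pax5 was 1.43-fold higher (1.11 to 1.85, adjusted p 0.0212, exact binomial test) on counts and 1.67-fold higher on deposited TPM. TPM divides by effective length, which for Pax5 was estimated at 1149.06 bases in replicate 1 and 1001.09 in replicate 2. The members with few counts gave wide intervals that include no difference. Pax1 was at 1.21-fold (0.683 to 2.21), Pax2 at 0.924-fold (0.442 to 1.98) and Pax9 at 1.81-fold (0.558 to 8.45), none called. By the deposited TPM intervals, 3 of the 5 members at 1 TPM were apart between the pools (Pax3, Pax6 and Pax7), beside 16.1% of genes.

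Isoform shares of Pax3 repeated closely between the pools. Pax3-202, a coding transcript of 8 exons, took 82.62% and 81.64% of the gene. Pax3-203, a processed transcript without a coding sequence, took 11.01% and 10.82%, and Pax3-201, with 9 exons, took 6.37% and 7.54%. Coding transcripts held 89.0% and 89.2%.

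Pax7 has 2 coding transcripts. Pax7-201 took 95.32% and 85.67%, and Pax7-202 took 4.68% and 14.33%, on 4.79 and 24.41 counts. The leading form was the same in both pools, and the minor one rests on few counts.

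**Figure D3:**
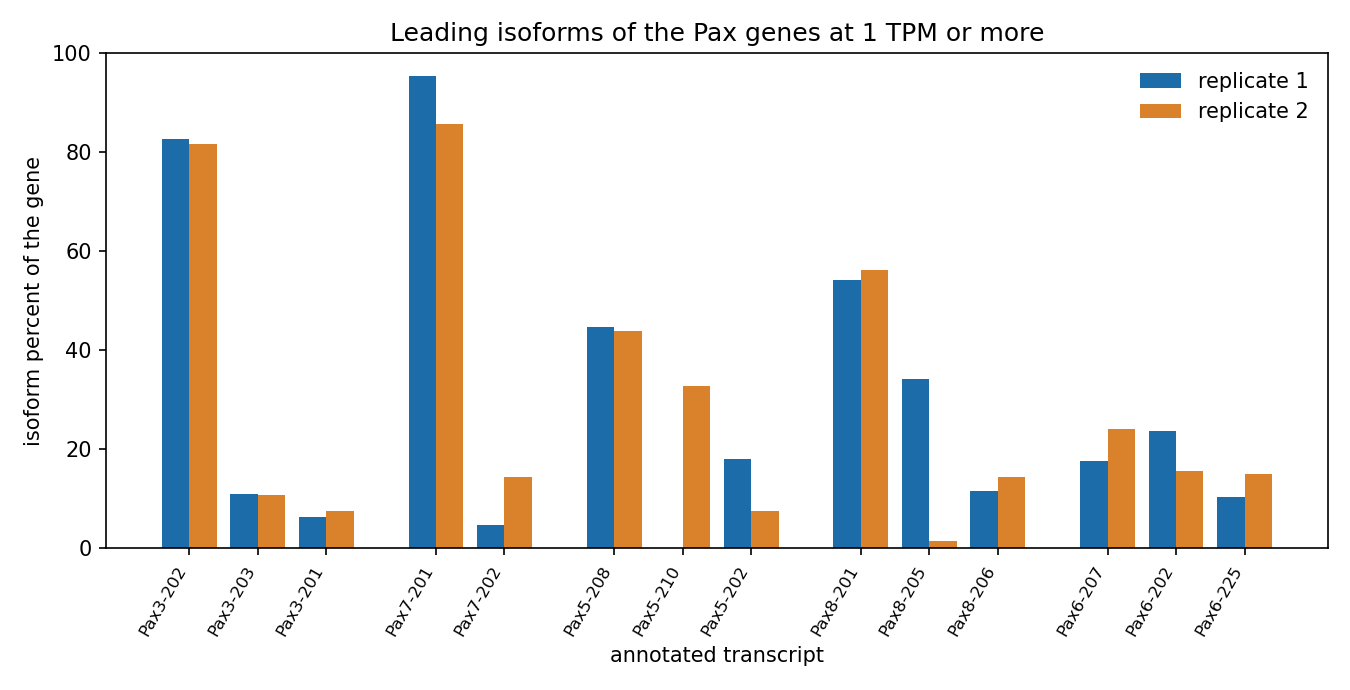
Isoform percent of the up to 3 leading transcripts of Pax3, Pax7, Pax5, Pax8 and Pax6 in replicate 1 (blue) and replicate 2 (orange). Pax3 bars match closely, Pax5-210 is at 0% in replicate 1 and 32.79% in replicate 2, and Pax8-205 is at 34.16% and 1.51%.

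Pax6 was spread over more transcripts. Of its 26, 18 were above 0 in replicate 1 and 12 in replicate 2, and all of those 12 were also above 0 in replicate 1. Each of the 12 seen in both had a lower estimated TPM in replicate 2, by 1.94 to 5.9-fold, so the lower level was not carried by a single isoform. The 6 seen in replicate 1 alone are lower in replicate 2 by definition, and summed to 5.96 TPM. Pax6-202 took 23.77% and 15.64%, Pax6-207 took 17.71% and 24.14%, and Pax6-225, which includes the alternative exon, took 10.46% and 15.04%. The last of these was lower on posterior mean TPM, at 7.49% and 8.21%.

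The 42-base exon printed above was in 20.3% of Pax6 TPM in replicate 1 and 25.1% in replicate 2 (22.7 ± 3.39, n = 2), among transcripts that either include it or join its flanks. In TPM, forms with the exon were at 8.36 and 3.05 and forms without it at 32.83 and 9.12. The form without the exon was thus the larger in both pools. Posterior mean TPM gave 22.5% and 28.4%.

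Grouped by annotated start within 500 bases, the transcripts of Pax6 fell into 12 start groups. The group at the first start (chr2:105668900-105668935, 4 transcripts) summed to 14.37 and 5.95 TPM, 2.42-fold lower in replicate 2. The group 6209 bases downstream (chr2:105675109-105675527, 6 transcripts) summed to 25.25 and 6.57 TPM, 3.84-fold lower. It was the largest group in each pool, at 42.1% and 37.1% of the gene, while the first group held 23.9% and 33.6%. A group of 6 noncoding transcripts near the downstream window (chr2:105682463-105682637) was at 3.05 and 0.39 TPM, 7.82-fold lower in replicate 2 on deposited TPM but 2.53-fold on posterior mean TPM. Most exons are shared between these transcripts, so the division of reads among starts is an estimate.

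**Figure D4:**
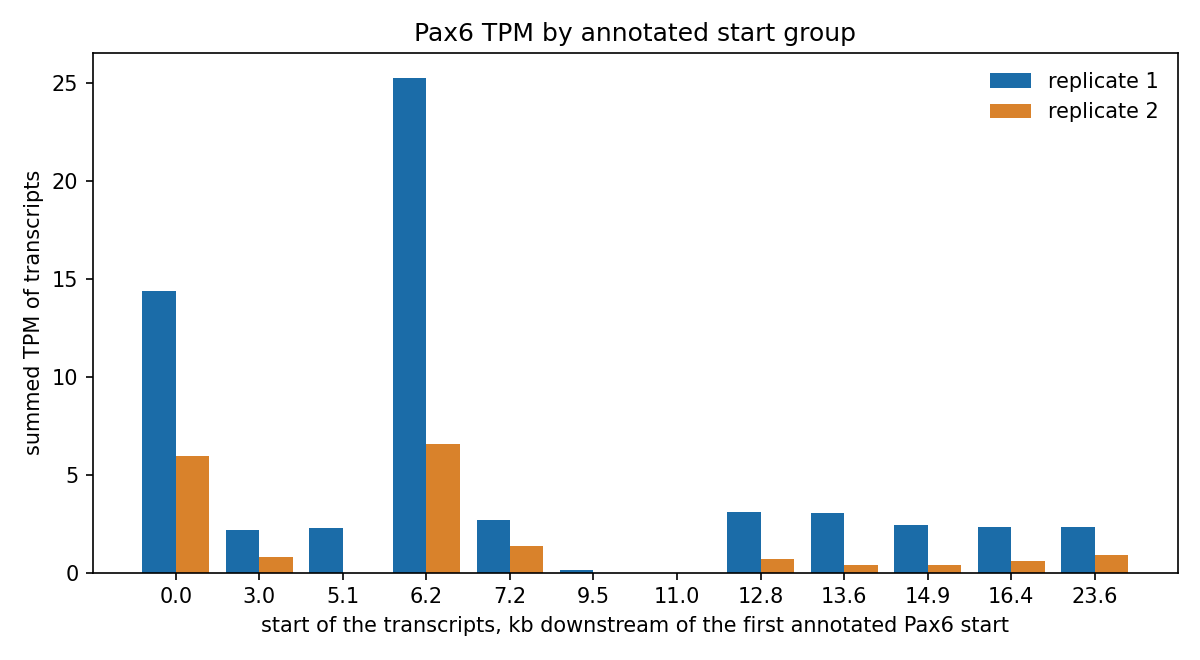
Summed TPM of Pax6 transcripts by annotated start group, placed in kb downstream of the first start, in replicate 1 (blue) and replicate 2 (orange). Each group with any TPM is lower in replicate 2, and the groups at 0 and 6.2 kb are the highest in both pools.

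Pax5 transcripts were divided unevenly. Pax5-208 took 44.61% and 43.84%, Pax5-210 took 0% and 32.79% and Pax5-202 took 17.95% and 7.59%. Of 20 transcripts, 7 were above 0 in each library and 4 in both. On posterior mean TPM the shares differed from these, at 21.99% and 30.59% for Pax5-208, 3.07% and 9.58% for Pax5-210 and 3.5% and 2.54% for Pax5-202. The division of Pax5 among its transcripts thus depends on the estimate used. The deposited length of Pax5-201 was 1616 bases, against 8004 bases in GENCODE M21, so the longer end in the newer annotation was not part of the deposited values.

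Pax5-208 was also the least certain of these. Its first exon of 636 bases (chr4:44703371-44704006) lies whole within 5730488B01Rik, an unclassified gene on the opposite strand (chr4:44702800-44705110). Of the 100-base stretches of Pax5, 5.64% were shared with other genes, 5730488B01Rik and Gm12462. The strand setting of the counting is not given in the sources used here. The posterior SD of the count was the same for Pax5 and 5730488B01Rik, at 5.22 in replicate 1 and 7.76 in replicate 2. Their fractional counts summed to 204 and 397. Reads were thus divided between these 2 genes of opposite strands, and the counts of Pax5-208 are an estimate. 5730488B01Rik had 104.71 and 214.48 counts, 1.59-fold higher in replicate 2, and Pax5-208 had 42.21 and 87.53 counts, 1.61-fold higher. Without Pax5-208, Pax5 had 57.08 and 94.99 counts, 1.29-fold higher with an adjusted p of 0.318 (exact binomial test), and 2.7 and 4.57 TPM. With the overlapping gene added, the ratio was 1.51-fold with an adjusted p of 2.13e-05, past the call threshold. Both of these sums were chosen after seeing the data.

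Pax8-201, the full coding form, took 54.18% and 56.19% of Pax8, but 33.4% and 38.13% on posterior mean TPM. Pax8-205, a retained-intron transcript of 345 bases, took 34.16% in replicate 1 on 3.41 counts and 1.51% in replicate 2 on 0.32 counts. Its posterior mean shares were 34.89% and 15.04%. Shares are per length, which weights a short transcript up for each count. Pax8-206, also with a retained intron, took 11.66% and 14.37%. Noncoding forms of Pax8 were 45.9% and 15.9% of its TPM.

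Across the family, 12 annotated genes overlap 6 Pax genes, 10 of them on the opposite strand. Apart from 5730488B01Rik, none had more than 27 counts in a library. The antisense gene Pax6os1 had 2 and 1 counts, so it was far below Pax6. Slc25a21, a mitochondrial carrier gene that ends within Pax9, had 25 and 27 counts, more than Pax9 itself. Mir6405 and Gm20395 at Pax2, AI646519 at Pax1, Gm15524 at Pax9, Gm13415 at Pax8 and 4930517J16Rik at Pax5 had at most 3.25 counts, Gm12462 at Pax5 had 6 and 14, and 1700039E22Rik and Mir5120 had 0.

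Genes known to work with Pax proteins were described from lists. By the exact binomial rule, 1.41% of the 15199 genes at 1 TPM or more were called lower and 2.14% higher. These shares apply beside each list count below. Of 15 Pax-binding cofactors, 0 were called by the exact binomial rule, with a median log2 ratio of -0.06. The leading cofactors on the list were Aes, a Groucho-family gene, at 377.13 and 376.55 TPM, and Paxbp1, which binds Pax3 and Pax7, at 94.92 and 94.01 TPM. The homeodomain cofactor Meis2 followed at 61.14 and 75.98 TPM. Summed over the 15 genes, the cofactors were at 913.3 and 913.8 TPM, above the sum of the Pax genes, with Aes the largest part. Gene by gene they lay on both sides of Pax3 (43.17 and 51.08 TPM). The 3 leading cofactors were above it in each library, while Tle6, for one, was below it at 2.40 and 4.22 TPM. Of 12 genes of the Eya, Dach and sine oculis homeobox network, which acts beside Pax in eye, muscle and ear, 3 were called higher in replicate 2 and 0 lower. Among them, Six2 was at 3.05 and 7.27 TPM and Eya1 at 3.85 and 6.49 TPM. Under edgeR's exact negative binomial test the call of Six2 held (adjusted p 2.06e-04) and that of Eya1 was lost (adjusted p 0.13). The higher-expressed members Eya3, Dach1 and Six3 were not called.

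Like Pax6, most diencephalic and pretectal genes on the list were lower in replicate 2. Of 11 diencephalic and pretectal genes, 5 were called lower in replicate 2 and 0 higher. Over all genes at a mean of 1 TPM or more, 1.41% were called lower and 2.14% higher. The median log2 ratio of the list was -0.55, beside 0.00 over all tested genes. Tcf7l2, a thalamic and pretectal Wnt effector, was at 443.67 and 282.81 TPM. Olig3, a progenitor factor of the alar thalamus and rhombic lip, was at 52.91 and 9.26 TPM. Barhl2 and Dlx1 were also called lower, at 0.54 and 0.635-fold, and the summed level of the list was 738.4 and 489.8 TPM. The call of Dlx1 was lost under edgeR's exact negative binomial test (adjusted p 0.0671), and those of Tcf7l2, Olig3 and Barhl2 held. Of these 11, 10 had a lower normalised count in replicate 2, and none was at 0. What part these territories have in the Pax6 difference was not tested.

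Of 10 cortical and forebrain progenitor partners of Pax6, 4 were called lower (Neurog2, Eomes, Emx1 and Tbr1) and 1 higher. The shares over all genes at 1 TPM or more were 1.41% lower and 2.14% higher. Neurog2, a proneural factor and Pax6 target, was at 125.18 and 68.48 TPM, and Eomes, a marker of intermediate progenitors, at 2.33 and 0.70 TPM. Under edgeR's exact negative binomial test the 4 lower calls held and the higher one was lost. The summed level of the list was 1860 and 1762 TPM, mostly Fabp7, Hes5 and Lhx2, none called. Eye and lens markers, the tissue where Pax6 is best known, summed to 8.43 and 9.67 TPM with 5 of 8 under 1 TPM in both libraries, and none of the 3 that reached a mean of 1 TPM was called. Of 6 rhombic lip genes, Olig3 was called lower and Atoh1 higher, the latter at 0.74 and 2.20 TPM.

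For the boundary subgroup, the list of 10 isthmus and midbrain genes had 2 called in each direction. Fgf17 was at 6.33 and 11.08 TPM and Cnpy1 at 77.67 and 121.60 TPM, both called higher in replicate 2. Wnt1 was at 10.55 and 7.17 TPM and Fgf8 at 4.58 and 3.55 TPM, both called lower, with overlapping TPM intervals for Fgf8. None of these 4 calls held under edgeR's exact negative binomial test, where the adjusted p-values were 0.0596 for Fgf17, 0.112 for Cnpy1, 0.246 for Wnt1 and 0.586 for Fgf8. The median log2 ratio of the list was 0.33. None of the 4 genes of Pax2-type inhibitory neurons that reached a mean of 1 TPM was called, and the 7 on that list summed to 113.1 and 106.0 TPM. Ptf1a, under that limit at a mean of 0.91 TPM, was 3.79-fold higher in replicate 2 on 9 and 46 counts. Its adjusted p was 3.23e-04 in the exact binomial test and 0.0179 in edgeR's exact negative binomial test. The other 6 on the list had a lower normalised count in replicate 2. The 7 B-cell markers, of a lineage known for Pax5, summed to 2.56 and 3.16 TPM, with Ms4a1 at 0 counts. None reached a mean of 1 TPM, so none could be called. The inner ear, kidney and thyroid list summed to 65.29 and 69.95 TPM.

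For Pax3 and Pax7, 8 dorsal neural tube genes had 1 called in each direction, Msx2 higher at 19.12 and 30.01 TPM and Wnt3a lower at 3.01 and 1.64 TPM. Both calls were lost under edgeR's exact negative binomial test, with adjusted p-values of 0.115 and 0.0601. None of the 5 neural crest markers that reached a mean of 1 TPM was called, and the 9 on that list summed to 115.8 and 129.4 TPM. Of the 8 tested, 7 had a higher normalised count in replicate 2 and 1 a lower one. Sox10, under that limit at a mean of 0.675 TPM, was 2.36-fold higher on 18 and 56 counts. Its adjusted p was 0.00632 in the exact binomial test and 0.145 in edgeR's exact negative binomial test. Of 9 skeletal muscle markers, 2 reached a mean of 1 TPM and neither was called, with Myod1 at 0.03 and 0.05 TPM. Myf5 and Myog, which with Myod1 define the muscle lineage that Pax3 and Pax7 supply, were at most at 0.24 TPM in either library. The most abundant genes of the list were Tnnt1 at 8.78 and 9.16 TPM, Actc1 at 3.49 and 3.80 and Des at 0.75 and 1.02.

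For Pax1 and Pax9, the sclerotome, cartilage and head mesenchyme list had all 10 members with a higher normalised count in replicate 2. Of these, 3 were called, while 2.14% of all genes at 1 TPM or more were called higher. The median log2 ratio of the list was 0.43, beside 0.00 over all tested genes. Matn4, a cartilage matrix gene, was at 2.28 and 11.16 TPM, Col2a1 at 109.82 and 161.05 TPM and Foxc2 at 5.44 and 14.35 TPM. The call of Col2a1 was lost under edgeR's exact negative binomial test (adjusted p 0.119), and those of Matn4 and Foxc2 held. The list summed to 466.6 and 683.4 TPM, with Col1a1, a connective tissue collagen that was not called, the most abundant at 326.19 and 469.23 TPM. Its part in the values of Pax1, Pax8 and Pax9 was not tested. Pancreatic islet genes, the site of Pax4, had Pdx1 and Ins1 at 0 counts, while Nkx6-1, which neural tissue also expresses, was called higher in replicate 2, a call lost under edgeR's exact negative binomial test (adjusted p 0.266).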

How the data were processed

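Total RNA-seq libraries of 2 midbrain pools were analysed as 1 group. Estimated counts for genes and transcripts (expected counts) were deposited in the layout of RSEM, per the file headers. The deposited TPM values are scaled by the authors to effective length and library, and stand beside a posterior mean TPM with an interval. The deposited isoform percent is each transcript's share of its gene. The annotation was GENCODE M4 on mm10 per the deposited notes. The aligner is not given in the sources used here. Symbols and coordinates came from GENCODE M21, which named 42462 of 43346 genes, and all 74 Pax transcripts. Promoter windows came from RefSeq (GRCm38.p6). Protein sequences were not used here.

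Expected counts were rounded for tests. Spike-ins (4.14% and 3.48% of counts) were left out. TMM factors (edgeR 4.0.16, R 4.3.3) were 0.995 and 1.005. Genes with at least 10 summed counts entered a two-sided exact binomial test (scipy 1.17.1) with Benjamini-Hochberg adjustment over all of them. Log2 ratios had 0.5 counts added, and 95% intervals are exact Clopper-Pearson intervals, counting error only. With 1 library a side a quasi-likelihood fit has no residual degrees of freedom. An exact negative binomial test in edgeR, DESeq2 1.42.0 size factors, other filters, pseudocounts, thresholds and posterior mean TPM were alternatives. The test was tried on simulated data. Pools are separate samples per the labels.

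All 9 members were named. For every list, the 3 most abundant members by mean TPM, all called members and markers at 0 counts were named or counted. Of the isoforms of members at 1 TPM, the 3 with the highest mean share were named. Further list genes were named after their values were seen. Some called list genes are counted and not reported by name here. Members and lists were chosen with earlier results of these data known.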

Additional observations from a re-analysis of the deposited data

How the results depend on the processing

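No paired analysis was possible because the 2 libraries form 1 group, and leaving out a library leaves no ratio between pools. Pax6 stayed called lower in all 13 alternatives run, with log2 ratios from -1.76 to -1.62 and adjusted p from 1.78e-232 to 1.74e-14. Pax8 ranged from 0.61 to 0.93. It was no longer called with a 2-fold threshold (0.92), a mean of at least 5 TPM (0.92), edgeR's exact negative binomial test (0.92, adjusted p 0.0568) or posterior mean TPM with intervals apart (0.61), and Pax members called higher went from 1 to 0 in each of these 4. That count was 4 at any fold, where 1873 of the 15199 genes at 1 TPM or more were called higher. It was 2 on the ratio of deposited TPM, with Pax5 added at 0.74, where 356 of all genes were called higher. Pax1 was at 0.0 on posterior mean TPM and Pax2 at 0.0 on deposited TPM, so their direction is not set.

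Of all genes tested, 539 were called, and 201 with the negative binomial test. Over all lists, 12 genes were called higher and 12 lower, beside 325 and 214 over all genes. With a 2-fold threshold the list counts were 4 and 4, beside 111 and 102 over all genes. At any fold they were 25 and 32, beside 1873 and 2136. With the negative binomial test they were 5 and 8, beside 108 and 93. At a mean of at least 5 TPM they were 10 and 7, beside 136 and 70. List medians changed sign for the pancreatic islet (-0.63) and hindbrain Hox lists (0.16) with no count filter. The B-cell median was -0.02 both with at least 50 counts and with 5 counts added. The cause was not tested. With 1 library alone, the Pax6 exon share was 20.3 to 25.1%, and 5 members stayed at 1 TPM. On posterior mean TPM, 5 of the 8 neighbours in the order were apart, against 6. Depth limits Pax1, Pax2 and Pax9, which had few counts.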
